A study of Homo sapiens with 17 samples.

Results

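Peaks of inducible FOXA and SOX2 proteins were examined on the contigs of the human assembly that stand outside the numbered and sex chromosomes. Members were all rows whose sequence name was neither a chromosome from 1 to 22, X or Y, nor the mitochondrial genome. There were 2483 such peaks among 265457 in 10 lists, and 1879 among 208775 in the 8 lists that combine both replicates of a group. All carried a name with alt, random or Un. Chromosomes 1 to 22 and X held 262958 of the peaks in the 10 lists and served as the comparison.

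The study used Flag ChIP-seq in U2OS, a human osteosarcoma cell line, in stable lines that express a Flag-tagged protein from a doxycycline-inducible Tet-on construct. Every protein group was induced for 4 days with 500 ng/ml doxycycline. The groups were full-length FOXA1 (FOXA1FL), FOXA2 (FOXA2FL) and FOXA3 (FOXA3FL), the same proteins without their CTD (FOXA1dCTD, FOXA2dCTD and FOXA3dCTD), full-length SOX2 (SOX2FL), and SOX2 joined to the CTD of FOXA2 (SOX2FLFOXA2CTD, called the fusion here). Each of the 8 groups had 2 replicates and 1 combined list, and SOX2FL and the fusion also had a list of the first replicate alone. The proteins are overexpressed, and the labels do not say whether a line is 1 clone. With 1 combined list per group there is no replicate check of any difference between groups, and read depth is not known. The lists have 2 irregularities that touch the results. Both FOXA3 lists share 5012 rows that are identical in every value, so they are not independent of each other, and the first-replicate list of SOX2FL overlapped only 19.9% of the peaks of the combined SOX2FL list. Intervals are Wilson 95% intervals for shares and Newcombe 95% intervals for differences, and they cover counting error over peaks only.

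FOXA proteins are forkhead factors that can bind their sites in closed chromatin, and SOX2 does the same through a different DNA-binding domain. Contigs named alt hold another version of a region that a chromosome already holds, such as a second haplotype. Contigs named random belong to a known chromosome but have no known place on it, and contigs named Un belong to no known chromosome. The last kinds are rich in satellite repeats, segmental duplications and ribosomal DNA. A read from a sequence held in more than one place fits each of them, so peaks on near-identical copies can rest on shared reads, and how such reads were assigned is not given in the sources used here.

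Every list placed about 1 peak in 100 on these contigs. The share was 0.829% for FOXA1FL (311 of 37532 peaks, interval 0.742% to 0.926%) and 0.855% for FOXA1dCTD (432 of 50539). It was 0.963% for FOXA2FL (434 of 45076) and 1.02% for FOXA2dCTD (544 of 53415). The FOXA3 lists, which were far shorter, gave 0.783% (48 of 6130) at full length and 0.734% (50 of 6813) without the CTD. SOX2FL gave 0.727% (10 of 1375, interval 0.396% to 1.33%) and the fusion 0.633% (50 of 7895). With all rows of the combined lists, no pair of full-length and altered protein differed beyond counting error. Removal of the CTD was accompanied by a difference of 0.026 points for FOXA1 (interval -0.097 to 0.147), of 0.056 points for FOXA2 (-0.069 to 0.179) and of -0.049 points for FOXA3 (-0.358 to 0.252). For FOXA3 it became -0.787 points (-1.70 to -0.172) once the identical rows were dropped from FOXA3FL alone. That left FOXA3FL 1118 peaks with 17 on contigs, while FOXA3dCTD kept the identical rows, so the lists were not treated alike. Among rows that are not identical, contigs held 1.52% of the FOXA3FL peaks and 1.05% of the FOXA3dCTD peaks (19 of 1801). No interval was computed for that difference. The fusion stood -0.094 points from SOX2FL (-0.719 to 0.294).

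The contig share was higher for FOXA2 than for FOXA1 in both forms. The difference was 0.134 points at full length (interval 0.0046 to 0.262) and 0.164 points without the CTD (0.046 to 0.281). The lists were not cut at the same limit: the weakest peak of FOXA1FL had an irreproducible discovery rate (IDR, which is low where both replicates rank a peak alike) of 0.200 against 0.350 for FOXA2FL, and FOXA1dCTD ended at 0.0501 against 0.251 for FOXA2dCTD. Among the 6813 strongest peaks of each list the shares were 0.895% for FOXA1FL, 0.881% for FOXA2FL, 0.705% for FOXA1dCTD and 0.939% for FOXA2dCTD, and the intervals of all 4 overlapped. The strength of a peak means here the lower of its −log10 p values in both replicates, both taken from the authors' lists.

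The median strength of contig peaks was equal to that of chromosome peaks in 2 of the FOXA1 and FOXA2 lists and lower in the other 2. In FOXA1FL the median strength was 4.08 on contigs and 4.08 on chromosomes, in FOXA1dCTD 4.08 and 4.34, in FOXA2FL 2.09 and 2.24, in FOXA2dCTD 2.96 on both, and in FOXA3FL 7.75 and 7.90. An IDR of at most 0.01 was reached by 46.5% of the FOXA1dCTD contig peaks (201 of 432), while 53.1% of all FOXA1dCTD peaks reached it. The contig share minus that on chromosomes was -6.61 points (interval -11.3 to -1.87). In FOXA3FL 72.9% of the contig peaks (35 of 48) reached this limit, against 86.2% of all its peaks, and contigs minus chromosomes was -13.4 points (interval -27.4 to -2.88). FOXA3dCTD ended at an IDR of 0.01, so every row identical in both FOXA3 lists reaches the limit. Such rows make up 31 of the 48 contig peaks and 5012 of the 6130 peaks of FOXA3FL. The FOXA3FL difference thus also reflects where the identical rows lie. In FOXA1FL the contig share was 9.97% against 9.16% of all peaks, and in FOXA2dCTD 11.6% against 12.2%, both within counting error.

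The kind of contig differed between factors. Alt contigs held 68.5% of the FOXA1FL contig peaks (213), 75% of those of FOXA1dCTD (324), 71.7% of those of FOXA2FL (311) and 73.0% of those of FOXA2dCTD (397). They held 25% of the contig peaks of FOXA3FL (12) and 34% of those of FOXA3dCTD (17), 50% of those of SOX2FL (5 of 10) and 38% of those of the fusion (19). The alt share of FOXA2dCTD exceeded that of FOXA3dCTD by 38.98 points (interval 24.6 to 51.1), and the alt share of FOXA2FL exceeded that of the fusion by 33.7 points (19.1 to 46.4). Unplaced contigs held 43.75% of the FOXA3FL, 38% of the FOXA3dCTD and 62% of the fusion contig peaks, against 9.74% to 14.7% in the FOXA1 and FOXA2 lists. Random contigs held 31.25% of the FOXA3FL and 28% of the FOXA3dCTD contig peaks, against 13.6% to 19.3% in the FOXA1 and FOXA2 lists. The random share of FOXA1dCTD minus that of FOXA3dCTD was -13.2 points (interval -27.2 to -2.04).

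**Figure D1:**
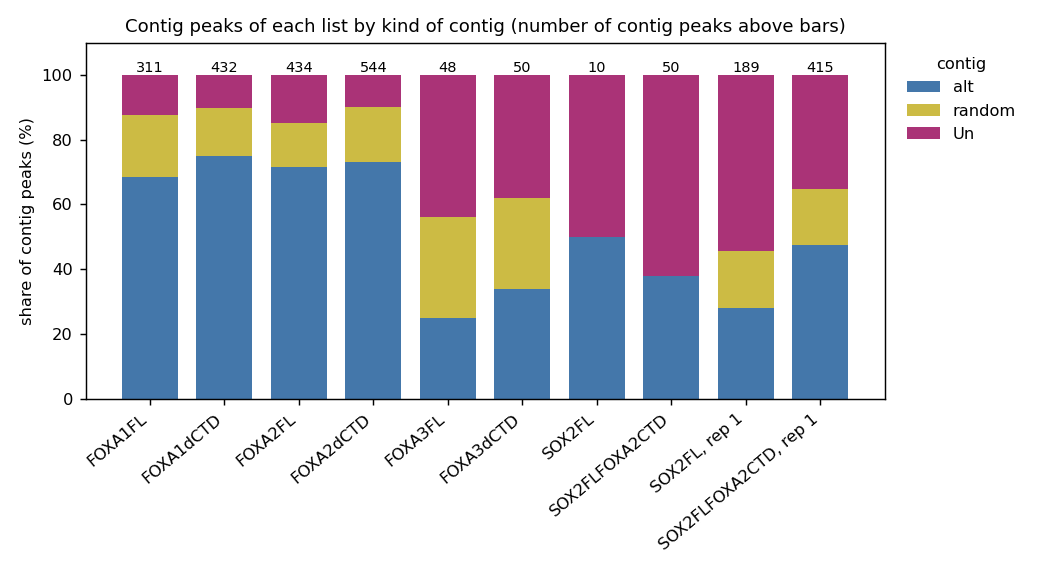
Share of the contig peaks of each list (vertical axis, percent) that lie on alt, random and unplaced (Un) contigs, with the number of contig peaks above each bar; "rep 1" marks the lists of the first replicate alone. Alt contigs held 68.5% to 75% in the FOXA1 and FOXA2 lists and 25% to 50% in the other combined lists, and the 2 combined lists with SOX2 had no peak on a random contig.

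The gap in alt share was smaller for 3 of the 4 FOXA1 and FOXA2 lists when each was held to its strongest peaks, which changes both the length and the strength of a list. Among the 6813 strongest peaks the alt share was 60.7% for FOXA1FL (of 61 contig peaks), 56.25% for FOXA1dCTD (of 48) and 56.7% for FOXA2FL (of 60), while FOXA2dCTD stayed at 73.4% (of 64). All 4 were above the FOXA3 values, though the intervals of FOXA1dCTD (42.3% to 69.3%) and FOXA2FL (44.1% to 68.4%) overlapped that of FOXA3dCTD (22.4% to 47.8%). Of the identical FOXA3 rows 31 were on contigs, which makes up 31 of the 48 contig peaks of FOXA3FL and 31 of the 50 of FOXA3dCTD. The 17 contig peaks that FOXA3FL does not share in this way lay on 6 contigs. Only 1 of them was on an alt contig (5.88%, interval 1.05% to 27.0%).

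No SOX2FL or fusion peak in the combined lists lay on a random contig. For the fusion this was 0 of 50 contig peaks, with an upper limit of 7.13%, against 59 of 434 for FOXA2FL, a difference of 13.6 points (interval 5.89 to 17.1). The first-replicate lists did place peaks there. Random contigs held 33 of 189 contig peaks of the first SOX2FL replicate and 72 of 415 of the first fusion replicate, 17.5% and 17.3%, against 13.6% to 19.3% in the FOXA1 and FOXA2 lists.

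The 8 combined lists reached 224 contigs, of which 149 were alt, 34 random and 41 unplaced. A further 33 contigs had a peak only in a first-replicate list. Peaks in all 8 lists were found on 3 contigs, all unplaced, named chrUn_GL000226v1, chrUn_GL000214v1 and chrUn_KI270744v1. Peaks in 7 lists were found on chrUn_KI270749v1 and chr22_KI270875v1_alt, both of which lacked SOX2FL alone. There were 42 contigs with a peak in a single list, and 57 contigs with a peak in 4 lists formed the most common class. FOXA1 and FOXA2 peaks and no others were found on 118 contigs. All 6 FOXA lists had a peak on 21 contigs, of which 8 were alt, 7 random and 6 unplaced.

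**Figure D2:**
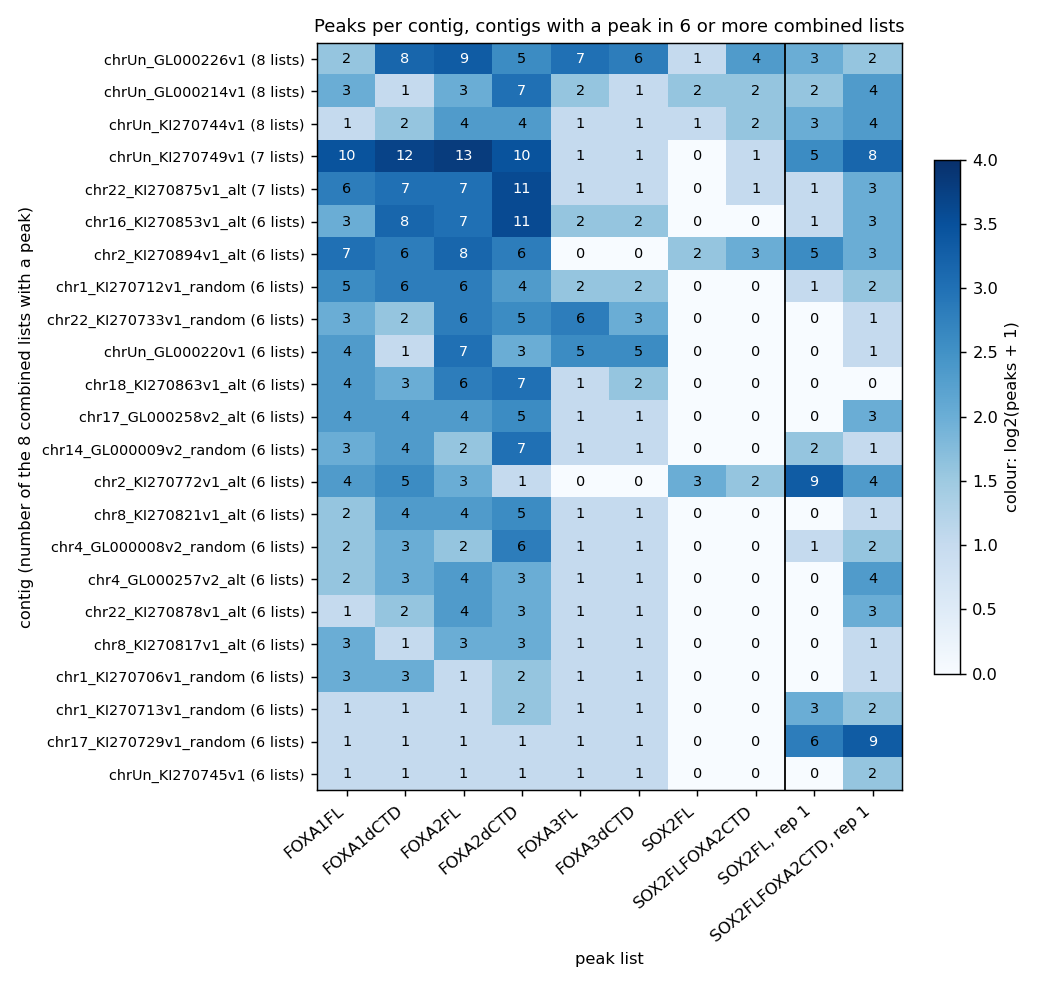
Number of peaks (printed in each cell; colour shows log2 of peaks plus 1) on the 23 contigs with a peak in 6 or more combined lists, by list; the lists right of the line are of the first replicate alone. The top 3 rows are the contigs with a peak in all 8 combined lists, and chr2_KI270894v1_alt and chr2_KI270772v1_alt are the rows that have SOX2FL and fusion peaks but none of FOXA3.

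The contig chrUn_GL000226v1 held 42 peaks although its peaks end at 14973. By list it held 2 peaks of FOXA1FL, 8 of FOXA1dCTD, 9 of FOXA2FL, 5 of FOXA2dCTD, 7 of FOXA3FL, 6 of FOXA3dCTD, 1 of SOX2FL and 4 of the fusion. Peaks of any combined list covered 49.1% of its reached length, meaning the stretch from its first base to the last peak end in any list. FOXA2dCTD alone covered 32.9% of it and FOXA1FL 6.26%. The contig held 7 of the 48 contig peaks of FOXA3FL, 9 of the 434 of FOXA2FL and 2 of the 311 of FOXA1FL.

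Merged over lists, the contig peaks formed 1017 sites, and the only site with a peak in all 8 lists was at chrUn_GL000226v1:14484-14973 (build hg38). Its strength was 3.58 in FOXA1FL, 12.04 in FOXA1dCTD, 8.204 in FOXA2FL, 6.62 in FOXA2dCTD, 16.71 in FOXA3FL, 17.07 in FOXA3dCTD, 6.97 in SOX2FL and 3.98 in the fusion. The replicates disagreed there in several lists, with −log10 p values of 21.62 and 3.58 in FOXA1FL, 28.70 and 6.97 in SOX2FL, and 25.89 and 3.98 in the fusion. The first-replicate lists of SOX2FL and the fusion had no peak at this site. A second site on the same contig, at 4966 to 5964, had a peak in every list but SOX2FL, and it was the strongest contig peak of FOXA1dCTD (21.59) and of FOXA3FL (16.97).

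On chrUn_GL000214v1 (21 peaks) the lists met at different places. All 6 FOXA lists had a peak at 126548 to 126868, with strengths from 4.41 in FOXA2FL to 7.56 in FOXA1dCTD, and neither SOX2 list did. At 64306 to 65299 the 3 full-length FOXA lists, SOX2FL and the fusion had peaks, and no list of a CTD-deleted protein did. The strengths there were 3.87 in FOXA1FL, 4.04 in FOXA2FL, 7.39 in FOXA3FL, 12.13 in SOX2FL and 10.57 in the fusion. It was the strongest contig peak of both combined lists with SOX2. It was the only one of the 1017 contig sites with a peak in the 3 full-length FOXA lists and in none of the 3 CTD-deleted lists, against 2 of 108694 chromosome sites, and the reverse pattern was seen at 0 contig sites and 69 chromosome sites. This pattern was picked after the values were seen. Both patterns need a peak in a single FOXA3 list, but 5012 of the 6130 FOXA3FL rows are identical in FOXA3dCTD. A site with an identical row cannot show either pattern, which holds all these counts down. The counts therefore do not show how rare a difference between full-length and CTD-deleted proteins is.

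On chrUn_KI270744v1 (16 peaks) recurrence of the contig did not mean recurrence of a site. The peaks of SOX2FL and the fusion lay between 11095 and 14075, where FOXA2FL was the only FOXA list with a peak. The SOX2FL peak, at 11095 to 11696, overlapped no FOXA peak and no peak of the combined fusion list. The FOXA3 peak, identical in both lists, was at 116736 to 117030, where FOXA2dCTD had a peak with −log10 p values of 13.43 and 14.31. FOXA1FL had its only peak of this contig at 141015 to 141462, at a site shared with FOXA1dCTD, FOXA2FL and FOXA2dCTD.

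Across all contigs, 14 sites had a peak in at least 6 lists, on 12 contigs. In 13 of them every FOXA list had a peak. In 11 of the 14 the strength was the same in both FOXA3 lists, so for these the FOXA3 lists count as 1 observation. The sites with every FOXA list included chr17_GL000258v2_alt:1586503-1587465, on the H2 haplotype of the MAPT region, with strengths of 3.48 in FOXA1FL and 10.91 in FOXA1dCTD. They also included chrUn_KI270745v1:30493-31543, with 8.17 in FOXA1FL and 16.85 in FOXA2dCTD, and chr4_GL000257v2_alt:157177-158396, with 5.33 in FOXA1FL and 10.56 in both FOXA3 lists. A peak in 2 or more lists was found at 45.8% of contig sites and at 45.6% of 108694 chromosome sites. A smaller share of contig sites had a peak in 4 or more lists, with 9.83% of contig sites and 12.1% of chromosome sites, a difference of -2.28 points (interval -3.97 to -0.283).

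Most peaks on the fullest alt contigs were of FOXA1 and FOXA2, as were most contig peaks and most chromosome peaks of the 8 combined lists. The first was chr17_KI270857v1_alt with 94 peaks, 18 of FOXA1FL, 24 of FOXA1dCTD, 26 of FOXA2FL, 25 of FOXA2dCTD and 1 of FOXA3dCTD, at 46 sites over a reach of 2869 kb. The alt contigs that followed were chr5_GL339449v2_alt with 46 peaks, chr15_KI270905v1_alt with 42, chr5_KI270897v1_alt with 38 and chr22_KI270875v1_alt with 34. Among random contigs the highest counts were 25 each on chr14_KI270725v1_random, chr1_KI270712v1_random and chr22_KI270733v1_random, followed by chr16_KI270728v1_random with 21 and chr14_GL000009v2_random with 18. On chr14_KI270725v1_random and chr16_KI270728v1_random all of these were FOXA1 and FOXA2 peaks.

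The strongest contig peak of any combined list lay at chr18_KI270863v1_alt:246-2027. It ranked 5 of 53415 in FOXA2dCTD, with −log10 p values of 39.03 and 49.19 in its replicates. The same site ranked 14 of 45076 in FOXA2FL, with 30.25 and 22.83, and stood at 21.47 and 48.34 in FOXA1dCTD. FOXA3FL had it at 2.02 and 27.02, and FOXA3dCTD at 10.05 and 22.42. FOXA1FL, SOX2FL and the fusion had no peak there, though FOXA1FL had 4 peaks elsewhere on this contig. The strongest contig peaks of FOXA1FL were at chr1_KI270765v1_alt:135009-135655, with 19.77 and 23.59 and rank 90 of 37532, and at chr22_KI270735v1_random:36949-38794, with 18.54 and 23.48.

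Density was computed as peaks per megabase of reached length. Contig lengths were not used here and contigs without a peak are not counted, so these densities are upper estimates, most of all on small contigs. FOXA1FL had 12.3 peaks per Mb on chromosomes, 3.64 on alt, 10.8 on random and 12.6 on unplaced contigs. FOXA3dCTD had 2.23 on chromosomes, 0.291 on alt, 2.51 on random and 6.29 on unplaced contigs. The fusion had 2.59 on chromosomes, 0.325 on alt, 0 on random and 10.3 on unplaced contigs. Alt contigs were sparser than chromosomes in all 8 lists, and unplaced contigs of FOXA1dCTD were too (14.6 against 16.5). In FOXA1FL and FOXA2dCTD the estimate for unplaced contigs was within 1 peak per Mb of that for chromosomes, which gives no direction for an upper estimate. On the 135 contigs that reach at least 100 kb the density of FOXA1FL was 4.06 per Mb and that of FOXA2dCTD 7.48, against 17.5 on chromosomes for FOXA2dCTD.

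**Figure D3:**
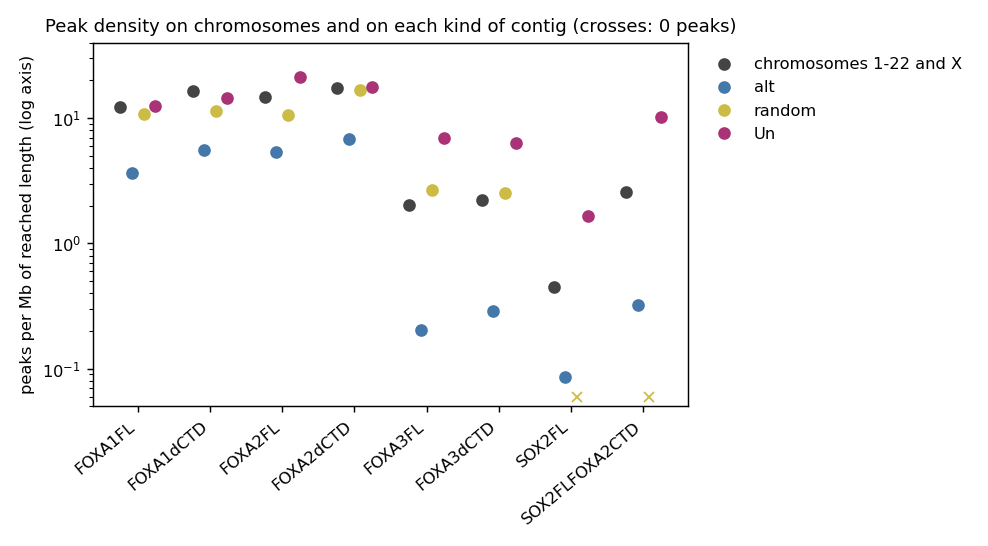
Peaks per Mb of reached length (vertical axis, logarithmic) in each combined list on chromosomes 1 to 22 and X and on alt, random and unplaced contigs; crosses mark 0 peaks. Alt contigs lie below chromosomes in all 8 lists, from 3.64 against 12.3 in FOXA1FL to 0.325 against 2.59 in the fusion.

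Single contigs spanned a wide range of densities. Summed over the 8 lists, the median was 3.47 peaks per 100 kb on alt, 8.73 on random and 11.3 on unplaced contigs. Among contigs that reach 100 kb the densest was chrUn_KI270749v1, with 48 peaks over 157 kb, or 30.6 per 100 kb. It held 10 peaks of FOXA1FL, 12 of FOXA1dCTD, 13 of FOXA2FL and 10 of FOXA2dCTD, and 1 each of FOXA3FL, FOXA3dCTD and the fusion. Next came chr18_KI270863v1_alt with 18.7 per 100 kb and chr22_KI270875v1_alt with 17.4. The sparsest were haplotypes of the major histocompatibility complex, the immune gene cluster of chromosome 6. The 4 of these contigs with any peak held 8 peaks over 15.5 Mb, or 0.517 per Mb, and 5 of the 8 were of FOXA2dCTD. The other 8 alt contigs of chromosome 6 held 79 peaks over 1.75 Mb, or 45.03 per Mb. The alt contigs of chromosome 19 held 9 peaks on 3 contigs, or 11.1 per Mb.

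The widest contig peaks of FOXA3FL, FOXA3dCTD and FOXA1dCTD lay on contigs with ribosomal DNA. Those of FOXA1FL, FOXA2FL and FOXA2dCTD lay on other contigs. The 45S gene is transcribed by RNA polymerase I into the precursor of the 18S, 5.8S and 28S ribosomal RNAs, and it is repeated in tandem on the short arms of several chromosomes. Copies lie on chrUn_GL000220v1, where RNA45SN5 spans 105424 to 118780, and on chr22_KI270733v1_random, where RNA45SN4 spans 122273 to 135645. Gene positions are from the RefSeq table of GRCh38.p14. That table gives RNA45SN5 no chromosome and RNA45SN4 only chromosome 22, so the contigs were assigned here from what is known of these genes; the lowest peak on chromosome 22 itself starts at 10686979. The 2 contigs held 50 peaks in the 8 lists, and they were singled out after the values were seen.

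**Figure D4:**
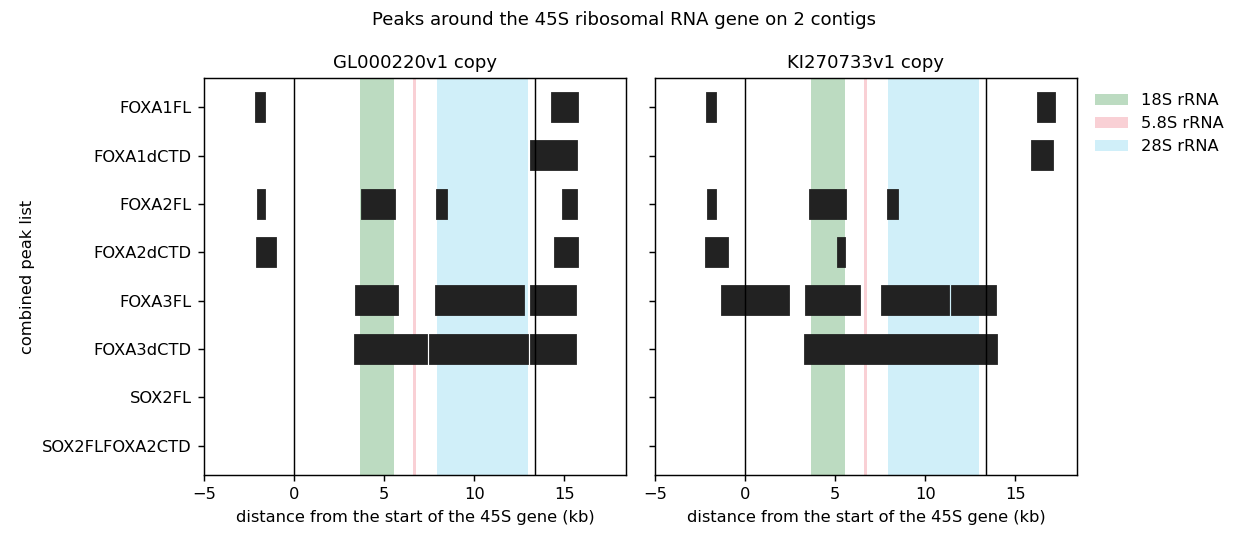
Peaks of the 8 combined lists (dark bars) around the 45S gene on 2 contigs, by distance from the start of the gene in kb; vertical lines mark both ends of the gene and the shaded bands are the 18S, 5.8S and 28S RNAs. FOXA3 peaks cover the 18S and nearly all of the 28S in both copies, FOXA1FL has a short peak about 2 kb before the gene, and neither list with SOX2 has a peak.

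FOXA3 covered more of the 45S gene than the other factors did. On chr22_KI270733v1_random a single FOXA3dCTD peak of 10643 bp (125599 to 136241, −log10 p of 12.28 and 94.25) covered all of RNA18SN4, RNA5-8SN4 and RNA28SN4, the genes of the 18S, 5.8S and 28S RNAs. FOXA3FL covered 82.4% of RNA45SN4 with 4 peaks, including all of the 18S but not the 5.8S. On chrUn_GL000220v1, FOXA3dCTD covered 72.3% of RNA45SN5 and FOXA3FL 55.7%, each with 3 peaks. Both covered all of the 18S, and FOXA3FL had no peak on the 5.8S. The FOXA3dCTD peaks began 3326 bp into RNA45SN4 and 3384 bp into RNA45SN5. The FOXA3 lists covered 22479 bp (FOXA3FL) and 22022 bp (FOXA3dCTD) of the first contig and 16567 and 20703 bp of the second, against 6171 and 6745 bp for FOXA2FL, the next highest list, and 3251 and 3236 bp for FOXA2dCTD.

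FOXA2 and FOXA1 peaks over the gene covered less of it, at most 19.2% of RNA45SN4 and 18.2% of RNA45SN5, both by FOXA2FL. A FOXA2FL peak lay over the 18S in both copies, covering 100% of RNA18SN4 (−log10 p of 11.91 and 16.88) and 95.2% of RNA18SN5, and a short one over the 5′ part of the 28S covered 11.4% of it in both copies. FOXA2dCTD had a peak on 20.0% of RNA18SN4 and none on RNA18SN5. FOXA1FL had no peak over the 18S or 28S. It had a peak upstream of the gene, at -2116 to -1654 bp from its start on chrUn_GL000220v1 (9.07 and 15.66) and at -2114 to -1651 bp on chr22_KI270733v1_random (13.92 and 17.98). FOXA2FL and FOXA2dCTD had peaks over the same upstream stretch in both copies, and FOXA1dCTD and FOXA3 did not. All 6 FOXA lists had a peak across or just past the 3′ end of RNA45SN5. There the FOXA1dCTD peak of 2560 bp, at 118561 to 121120, was slightly wider than the FOXA3 peak of 2491 bp, which was identical in both FOXA3 lists.

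The 3 copies on chromosome 21 shared part of this layout. FOXA1FL had its upstream peak at each, starting between -2151 and -2118 bp from the start of the gene, and FOXA2FL and both FOXA3 lists had a peak over the 18S at each. FOXA2FL had no upstream peak at any of the 3, and FOXA2dCTD had one only at RNA45SN1. FOXA2dCTD had a peak over the 18S at all 3, where it had none on RNA18SN5. Across the 3′ end or within 5 kb past it, the only FOXA1 or FOXA2 peak was of FOXA2FL at RNA45SN3. That peak began 16424 bp from the start of the gene. These copies are near identical to each other, so the 5 are not separate observations. SOX2FL and the fusion had 0 peaks on both contigs, which held 1 fusion peak each of 198 and 218 bp in the first-replicate list. Without the 2 contigs the alt share of FOXA3FL was 32.4% and that of FOXA3dCTD 40.5%, still below the 70.1% to 75.5% of the FOXA1 and FOXA2 lists.

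Peaks of 1 factor alone were found on 51 contigs. FOXA2 had 30 of these, FOXA1 11, SOX2 with the fusion 10 and FOXA3 none. The FOXA2 lists also had the most contig peaks, 434 and 544, against 311 and 432 for FOXA1. The FOXA3 lists had 48 and 50, SOX2FL 10 and the fusion 50. On 39 of the 51 there was only a single peak, and on 9 both lists of the factor had one, so most rest on 1 row. A first-replicate list of SOX2FL or the fusion had a peak on 7 of the 30 FOXA2 contigs and on 2 of the 11 FOXA1 contigs, which leaves 42 of the 51 when these are not counted. The FOXA2 contigs with the most peaks were chr2_KI270715v1_random, with 5 of FOXA2FL and 2 of FOXA2dCTD, and chr2_KI270716v1_random, with 3 and 4. Both also had 2 peaks in a first-replicate list, of SOX2FL on the first and of the fusion on the second. Next were chr8_KI270819v1_alt with 2 and 2, chr9_KI270717v1_random with 1 and 3 (and 2 first-replicate fusion peaks), and chr12_KI270834v1_alt with 1 and 2. FOXA1 had 1 peak of each form on chr11_KI270831v1_alt and 2 peaks of FOXA1dCTD on chrUn_KI270333v1. All 35 contigs with a FOXA3 peak also had peaks of FOXA1 and of FOXA2.

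The 10 contigs with SOX2 or fusion peaks alone each held 1 peak, always of the fusion, and 9 of them were unplaced. The first-replicate lists had a peak on 8 of them. On chrUn_KI270756v1 the combined fusion list had 1 peak, while the first-replicate lists had 14 of SOX2FL and 15 of the fusion. On chrUn_KI270435v1 these numbers were 1, 3 and 8, and on chrUn_KI270589v1 they were 1, 1 and 7. The combined fusion list ended at an IDR of 0.912, so it holds peaks whose ranks hardly agree between replicates.

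Contig peaks recurred in the other list of their pair somewhat less often than other peaks for FOXA1, while for FOXA2, FOXA3 and the combined SOX2 lists the difference was within counting error. A FOXA1dCTD peak overlapped 50.5% of the FOXA1FL contig peaks (157 of 311) and 56.0% of all FOXA1FL peaks, and contigs minus chromosomes was -5.55 points (interval -11.1 to -0.014). The interval reached past 0 with a 50% reciprocal overlap (-10.8 to 0.20), with summits within 100 bp (-9.79 to 1.11) and on random and unplaced contigs alone (-11.8 to 7.58). In the other direction FOXA1FL overlapped 36.6% of the FOXA1dCTD contig peaks against 41.7% of all its peaks, a difference from chromosomes of -5.14 points (-9.57 to -0.48). For FOXA2FL the shares were 50.7% (220 of 434) and 51.3%, with a difference of -0.567 points (-5.28 to 4.13), and FOXA2FL overlapped 40.1% of the FOXA2dCTD contig peaks (218 of 544) and 43.2% of all FOXA2dCTD peaks. For FOXA3FL they were 93.75% (45 of 48) and 94.4%, and in the other direction 86% (43 of 50) and 84.9%, most of it from the identical rows. For SOX2FL 6 of 10 contig peaks were overlapped by a fusion peak, against 76.6% of all SOX2FL peaks, a difference of -16.7 points (-45.5 to 6.59). For the fusion 12% of the contig peaks (6 of 50) were overlapped by a SOX2FL peak, and 13.6% of all fusion peaks were. In the first-replicate lists the fusion overlapped 65.6% of the SOX2FL contig peaks (124 of 189), and contigs minus chromosomes was -9.17 points (-16.2 to -2.72). SOX2FL overlapped 29.4% of the fusion contig peaks (122 of 415), where the difference was 5.07 points in the other sense (0.87 to 9.64).

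**Figure D5:**
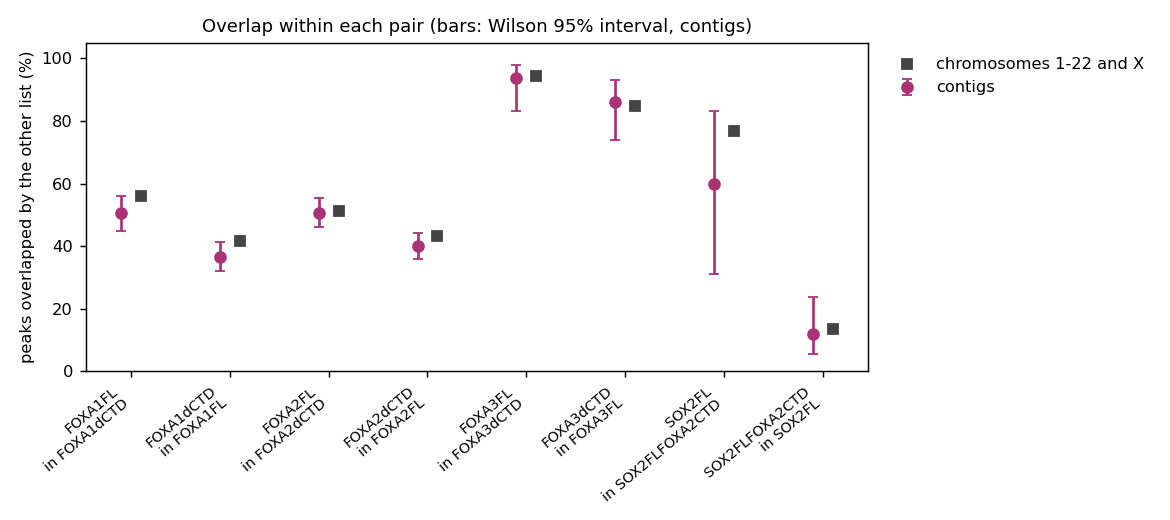
Share of the peaks of one list overlapped by at least 1 bp by a peak of the other list of its pair (vertical axis, percent), for peaks on contigs (circles, with Wilson 95% intervals) and on chromosomes 1 to 22 and X (squares). Contig values lie within 6 points of chromosome values in the FOXA pairs, and the SOX2FL value rests on 10 contig peaks.

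The contigs a pair shared followed list length. FOXA1FL and FOXA1dCTD shared 104 contigs, with 30 in the full-length list alone and 47 in the CTD-deleted list alone. FOXA2 shared 129, with 24 and 46. All 29 contigs of FOXA3FL were also in FOXA3dCTD, which had 6 more, and all 6 of SOX2FL were also in the fusion list, which had 30 more.

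The 10 SOX2FL contig peaks lay on 6 contigs: 3 on chr2_KI270772v1_alt, 2 on chr2_KI270894v1_alt, 2 on chrUn_GL000214v1 and 1 each on chrUn_GL000226v1, chrUn_KI270744v1 and chrUn_KI270751v1. A FOXA2FL peak overlapped 7 of the 10 (70%, interval 39.7% to 89.2%), while 28.7% of all SOX2FL peaks were overlapped by one. The contig share was 41.6 points above that on chromosomes (11.2 to 60.9). A FOXA1dCTD peak overlapped 1 of the 10, against 55.7% of all SOX2FL peaks (contigs minus chromosomes -46.0 points, -54.7 to -15.5). For FOXA3FL it was 2 of the 10, against 55.8% of the SOX2FL peaks on chromosomes (-35.8 points, -50.3 to -4.65). For FOXA3dCTD it was 1 of the 10, against 44.8% on chromosomes (-34.8 points, -43.5 to -4.31). The intervals for FOXA1FL (4 of 10, against 35.6% on chromosomes) and FOXA2dCTD (2 of 10, against 25.5%) spanned 0. These comparisons were not among the planned results. Both SOX2FL peaks on chrUn_GL000214v1 lie in 1 merged site, so the 10 peaks are not all separate. On chr2_KI270772v1_alt the peaks were at 1220 to 1816, 4504 to 5966 and 11627 to 12228, with strengths of 4.05, 3.80 and 5.10, and FOXA2FL was the only FOXA list with a peak at the first and the second of these.

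The SOX2FL contig peaks also stood apart in their relation to the first-replicate list. That list overlapped 9 of the 10 (90%, interval 59.6% to 98.2%), but only 19.9% of all peaks of the combined SOX2FL list, so that the contig share was 70.7 points higher than on chromosomes (40.2 to 79.1). A combined list is made from both replicates, and most of its chromosome peaks were not in the first-replicate list. For the fusion the first-replicate list overlapped 66% of the contig peaks (33 of 50) and 55.2% of all peaks, with a difference from chromosomes of 10.9 points (-3.03 to 22.5).

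The first-replicate lists held many more contig peaks than the combined ones. SOX2FL had 189 of 13977 peaks (1.35%) on 78 contigs, and 72 of these contigs, with 166 peaks, had none in the combined list. The fusion had 415 of 42705 (0.972%) on 147 contigs, and 115 of these, with 256 peaks, had none in the combined list. Here the fusion had the lower contig share, by -0.380 points (interval -0.604 to -0.177). Unplaced contigs held 54.5% of the SOX2FL and 35.2% of the fusion contig peaks, a difference of -19.3 points (-27.6 to -10.8). The contig chrUn_KI270442v1 held 14 SOX2FL and 20 fusion peaks in the first replicate, against 0 and 4 in the combined lists, and chrUn_KI270756v1 held as many of SOX2FL. The strongest was at chrUn_KI270587v1:94-2873 in the fusion list, with a −log10 p of 26.97 and a fold enrichment of 5.57. This contig reached only to 2875, and no combined list had a peak on it. The second site by strength, at chrUn_KI270757v1:57286-57853 with 21.14 and 5.44-fold, was also the strongest of SOX2FL (14.01 and 3.96-fold). The median fold enrichment was 3.04 on contigs and 3.20 on chromosomes for SOX2FL, and 3.01 and 3.06 for the fusion.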

How the data were processed

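The peak lists are the authors' own and were used as deposited, with positions 1-based on hg38, the build in the submitters' processing notes. Those notes also name FastQC 0.10.1, Trim Galore, Bowtie2 2.4.4, SAMtools 0.1.18, MACS2 and deepTools 2.4.1, with no settings. Of 14 lists, 10 were used and 4 were byte-for-byte copies. The deposited combined lists (8) have the layout of the IDR program and give an IDR score, where 830 stands for an IDR of 0.01, and the −log10 p of each replicate in columns without a replicate number. The deposited first-replicate lists give a fold enrichment (ratio over local background), a −log10 p, a −log10 q and a summit offset. The series also holds 1 U2OS input sample, and whether it served as the control for these lists is not given in the sources used here. Limits and the treatment of reads with several matches are not given there either. The treatment labels give doxycycline per ml and the extraction text per ul, a conflict not resolved here.

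Groups were taken from the titles. Lists were read with Python 3.11.15 and pandas 2.3.3. Peaks were shared at an overlap of at least 1 bp, and sites are overlapping contig peaks merged over the 8 combined lists. Since each group is 1 list, no test was run. The overlap and interval code was checked on simulated peaks. Named contigs follow a rule: those in all 8 lists, the 5 of each kind with the most peaks, and up to 5 per factor with at least 2 peaks and none of another factor; named peaks are the 2 strongest of each list. Other contigs named were chosen after their values were seen. Members and lists were chosen with earlier results of these data known. Contig sequences were not used here.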

Additional observations from a re-analysis of the deposited data

How the results depend on the processing

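Of 69 alternative values for 18 results, 54 stayed within counting error or within 1.5 times the count, 15 moved further and 0 called values reversed. Only the FOXA1 overlap difference could count as reversed, since no other difference had an interval that excluded 0. Differences whose interval spanned 0 changed sign in some settings, among them the FOXA1, FOXA2 and SOX2 share differences below. Merging peaks, or counting chromosomes 1 to 22 and X only, barely changes a share, and these settings are among the 54. With an IDR of at most 0.01, the contig share of FOXA1dCTD minus FOXA1FL became -0.152 points (interval -0.540 to 0.135). The FOXA1 overlap difference became -18.8 points (-36.4 to -3.80). The FOXA1 overlap difference lost its exclusion of 0 with a 50% reciprocal overlap (-5.38 points), summits within 100 bp (-4.45) and random and unplaced contigs alone (-1.95). Where each replicate had a p of at most 1e-05, the FOXA2 share difference became -0.205 points (-0.674 to 0.180). Without the identical rows of the full-length list, the FOXA3 share difference was -0.787 points (interval -1.70 to -0.172), past counting error. The FOXA3 overlap difference was then 13.1 points (-10.4 to 24.9). FOXA3dCTD kept those rows in both values, so the lists were not treated alike. With both SOX2 lists held to the lower of their IDR limits, the share difference of SOX2 was 0.296 points (-0.493 to 1.33). The SOX2 overlap difference was 8.68 points (-17.8 to 35.1), so both intervals spanned 0. No contig can be in all 8 lists at an IDR of at most 0.01, since FOXA2FL has no such peak. That value of 0 was fixed in advance, though it is among the 15 that moved. The 3 contigs in all 8 lists became 0 with a p of at most 1e-05 and 0 with at least 2 peaks per list. Counting the 6 FOXA lists alone gave 21. That count, the equal numbers of strongest peaks, the lists without ribosomal DNA contigs and the alt share without identical rows were chosen after seeing the data. FOXA2FL has no peak with an IDR of at most 0.01, so that alternative was not run for its 2 results. No paired analysis was possible because each group is 1 combined list and no result comes from a test. Depth is unknown, and the 10 contig peaks of SOX2FL allow only wide intervals.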
